A study of Mus musculus with 12 samples.

Results

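Ace and 7 other genes for peptidases that sit on the cell surface, Anpep, Mme, Dpp4, Adam8, Adam10, Adam17, and Adam19, were followed across eosinophils of the mouse small intestine (SI). The 8 genes were taken by symbol from the deposited table of 36047 genes, with results of these data in view, and Ace was known to differ between the subsets. Their levels and differences are therefore given as a description, and nothing is read from a count of them past a threshold. All 8 passed the minimum average of 10 normalized counts that 15249 genes of the table passed. Each of the 12 libraries held RNA of eosinophils that the authors sorted by flow cytometry from the SI lamina propria of wild-type female C57BL/6J mice, and 2 mice were pooled per library. There were 4 libraries of α4β7+ eosinophils, which carry the gut-homing integrin α4β7, 4 of CD22+ eosinophils, which carry the sialic acid-binding lectin CD22, and 4 of α4β7− CD22− eosinophils, which were gated by the absence of these markers and are defined by nothing else. The mice carried no transgene and received no treatment, and the labels used here give no age for a library.

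Surface peptidases cut peptides and proteins outside the cell. Ace, the angiotensin-converting enzyme, removes dipeptides from the ends of angiotensin I, bradykinin, and other small peptides, and is known from endothelium and from the brush border of the intestine. Anpep (aminopeptidase N, CD13), Mme (neprilysin, CD10), and Dpp4 (dipeptidyl peptidase 4, CD26) also act on small peptides, the aminopeptidase and Dpp4 from the amino end and neprilysin by cutting inside the chain, and all are prominent in the enterocyte brush border as well as on some leukocytes. Adam8, Adam10, Adam17, and Adam19 belong to a different class, the membrane-anchored disintegrin metalloproteases, some of which release the outer parts of receptors, adhesion molecules, and cytokines from the membrane.

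Markers of the sorted cells were present, though not all at the same level in each subset. Siglecf, the surface lectin used in the sort, was present at 6884 to 8594 normalized counts in all 12 libraries. Of 8 eosinophil markers, 5 (Ccr3, Il5ra, Epx, Prg2, and Alox15) were lower in CD22+ than in α4β7+ eosinophils in limma, and the 8 summed to 109840 to 121730 in α4β7+, 86100 to 94045 in α4β7− CD22−, and 70856 to 77723 in CD22+ libraries. Itgb7, which encodes the β7 chain, ranged from 1838 to 3058 in α4β7+ libraries and from 99 to 304 in the other 8. The sort kept CD45+ CD11b+ SiglecF+ cells without MHCII or Ly6G, yet RNA of other cells was present. The 7 B and plasma cell markers summed to 10742 to 35872 normalized counts per library, and the 12 macrophage and dendritic cell markers to 3570 to 9390. The 8 neutrophil markers summed to 102 to 186, with Elane at 0 in all 12 libraries and S100a8 at 0 in 11, while Ltf was above 0 in each. Of the neutrophil markers, Ngp was higher and S100a9 and Mmp8 were lower in CD22+ than in α4β7+ eosinophils in limma. The 6 mast cell markers summed to 53.3 to 182, with Tpsb2 at 0 in all 12 libraries and Fcer1a at 0 in 10, while Kit was above 0 in each. The 8 fibroblast markers summed to 787 to 2962, the 7 T cell markers to 595 to 1599, and the 6 Paneth cell markers to 337 to 1767, with Defa30 higher in CD22+ than in α4β7+ and Cd3e and Cd8a lower in α4β7− CD22− than in α4β7+ eosinophils in limma. Enterocyte and endothelial RNA is given beside the genes for which it was compared. A normalized count is the number of reads assigned to a gene, scaled by the authors so that libraries can be compared.

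Ace rose in steps from α4β7+ through α4β7− CD22− to CD22+ eosinophils. The gene lies on chromosome 11 of GRCm38, at chr11:105967945-105989964 on the plus strand. In α4β7+ eosinophils the 4 libraries held 182, 129.5, 196.7, and 258.3 normalized counts of Ace. In α4β7− CD22− eosinophils they held 451.5, 374, 391.7, and 510.3. In CD22+ eosinophils they held 2149, 2158, 1556, and 1954. Every library of a later subset in this order was above every library of the subsets before it, and the lowest CD22+ library was above the highest of the other 8. The mean of α4β7− CD22− libraries was 2.25 times that of α4β7+ libraries, the CD22+ mean was 4.52 times that of α4β7− CD22− libraries, and over both steps the ratio was 10.2.

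On the scale of log2(normalized count + 1), Ace differed by 1.20 ± 0.18 (SE, n = 4 libraries per subset) between α4β7− CD22− and α4β7+ eosinophils. The step from α4β7− CD22− to CD22+ eosinophils was 2.17 ± 0.18. In these bulk libraries a larger share of cells with Ace RNA and more Ace RNA per cell cannot be told apart. The table gives 1 value per gene, so the long somatic and the short germinal form of Ace were not separated. Of the exon sequence of Ace, 4.5% of 31-base words also occur in other genes, the most in the antisense gene Gm11651. The strand setting of the counting is not given in the sources used here.

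The steps of Ace are set beside those of other genes as a description. Ace ranked 12th by its difference between CD22+ and α4β7+ eosinophils and 24th by its step from α4β7− CD22− to CD22+ among genes with an average of at least 100. Among 9170 other genes with an average of at least 100 normalized counts, 95 rose from α4β7+ to α4β7− CD22− by at least as much as Ace, and 23 rose from α4β7− CD22− to CD22+ by at least as much. None of the 9170 did so in both steps. The 5 genes whose pair of steps lay nearest to that of Ace, by Euclidean distance between log2 differences over the 3 subsets, were Ffar1, Jaml, Cd22, Apol10b, and Ighg2b. Their distances from Ace ran from 0.61 to 1.20. Ffar1, a receptor for medium- and long-chain fatty acids, was nearest, with 64.7 ± 11.7, 215 ± 34.5, and 780 ± 125 normalized counts (SD, n = 4) along the 3 subsets. Jaml, a junctional adhesion molecule of leukocytes, had 228 ± 28.2, 547 ± 66.0, and 1341 ± 130 in the same order. Cd22, at distance 0.98, encodes a protein used to sort the cells, so its difference between CD22+ and CD22− gates is not an independent result. Its RNA was already higher in α4β7− CD22− than in α4β7+ eosinophils, by 1.99 on the log2 scale. Ffar1 and Cd22 are neighbours on the minus strand of chromosome 7, where Ffar1 spans chr7:30857390-30861564 and Cd22 spans chr7:30865402-30880342. Ighg2b encodes an immunoglobulin heavy chain and ranged from 96.2 to 427 normalized counts among the CD22+ libraries alone, a wide spread.

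Ace is also an endothelial and an enterocyte gene, so the markers of those cells are given beside it. Of 8 endothelial markers, Pecam1 was high in every library, from 9507 to 13060 normalized counts, and Esam rose with the subsets, from 16 to 24 in α4β7+ up to 214 to 398 in CD22+ libraries. Esam passed the thresholds as higher in all 3 comparisons in limma. Pecam1 and Esam were set aside after their values were seen. The remaining 6 markers (Cdh5, Kdr, Tek, Emcn, Plvap, and Cldn5) summed to 197 to 452 normalized counts in α4β7+, 124 to 445 in α4β7− CD22−, and 185 to 731 in CD22+ libraries. Their ranges overlapped in all 3 comparisons, with medians of 269.9, 169.1, and 498.6 in this order, the highest in CD22+ libraries. Emcn and Cldn5 were each at 0 in 1 library. Within α4β7− CD22− eosinophils the libraries lowest and highest in these 6 markers (123.5 and 445.3) were also lowest and highest in Ace, and within CD22+ eosinophils replicate 3 was lowest in both. Within α4β7+ eosinophils the library highest in the markers (452.4) was lowest in Ace. With enterocyte markers, described with Anpep, the order also differed by subset. In α4β7+ eosinophils the 2 libraries with the most enterocyte RNA had the most Ace, and in CD22+ eosinophils the library with the most had the least Ace. The part of these markers in the Ace difference was not tested.

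**Figure D1:**
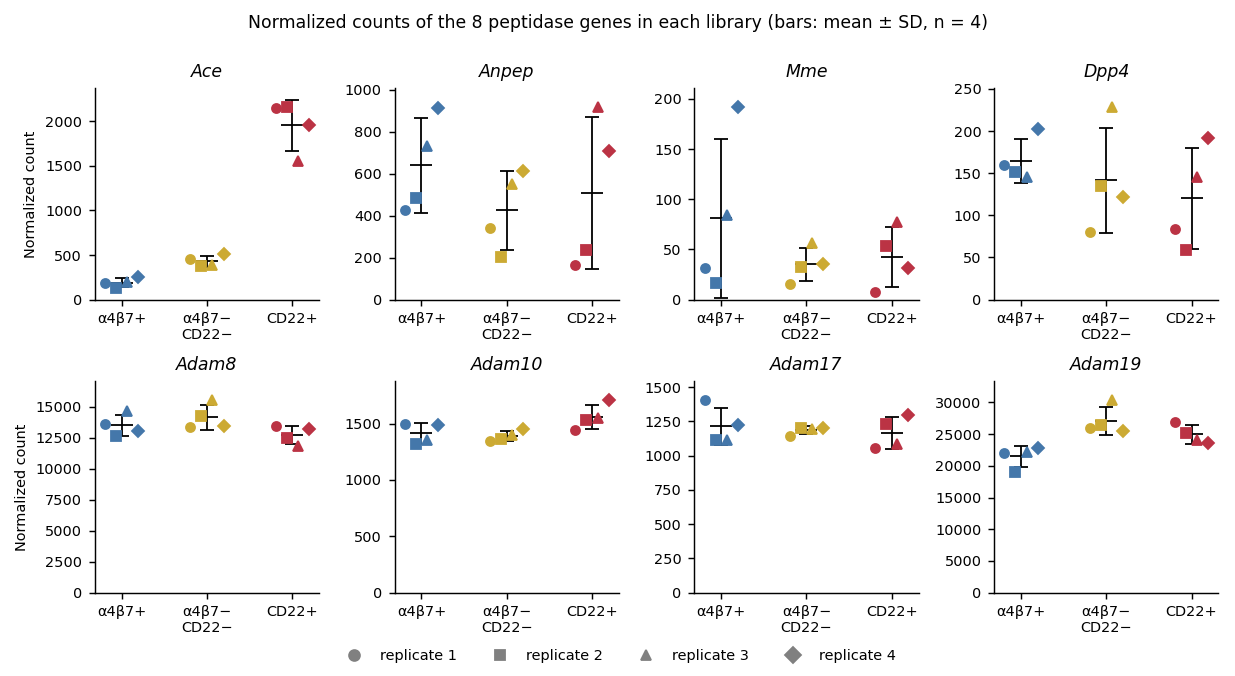
Normalized counts of the 8 genes (vertical axes, each starting at 0) in the 4 libraries of α4β7+, α4β7− CD22−, and CD22+ eosinophils (horizontal axes). Points are libraries, with a marker shape per replicate number, and bars are the mean ± SD. Ace climbs from 129.5 to 258.3 up to 1556 to 2158 with no overlap, and the points of Anpep, Mme, and Dpp4 overlap between all subsets. The Adam genes move little, with Adam19 lowest in α4β7+ libraries.

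Across the 8 genes, Ace was the sole member past the thresholds used for all genes, an adjusted p of at most 0.05 in limma and a fold change of at least 1.5, and it was higher in each comparison. Nothing is read from these counts, since Ace was chosen for this contrast. Over all genes tested, 8.05% passed between α4β7− CD22− and α4β7+ eosinophils, 3.7% as higher and 4.35% as lower. Between CD22+ and α4β7+ eosinophils 12% passed, 5.6% as higher and 6.39% as lower. Between CD22+ and α4β7− CD22− eosinophils 0.603% passed, 0.21% as higher and 0.393% as lower. The median log2 difference of the 8 genes was −0.03, −0.07, and −0.01 in these comparisons, beside 0.00, 0.01, and −0.00 over all genes. Groups of libraries did not overlap for 2 members, Ace and Adam19, in each comparison with α4β7+ eosinophils, and for Ace alone between CD22+ and α4β7− CD22−. Over all genes such a separation was found for 18.8%, 22.9%, and 6.37%, respectively.

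**Figure D2:**
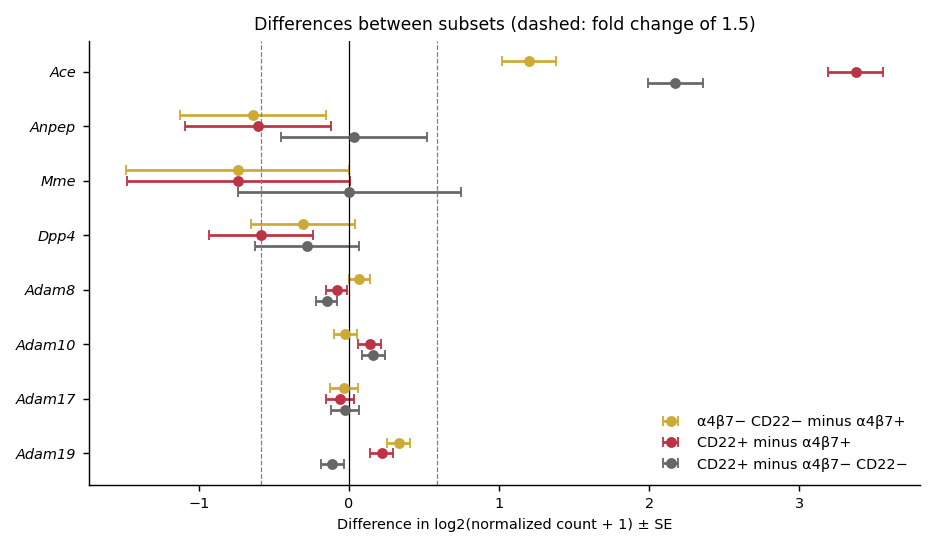
Log2 difference between subsets (horizontal axis, on log2(normalized count + 1), ± SE) for each of the 8 genes (vertical axis), with dashed lines at a fold change of 1.5. The points of Ace lie at 1.20, 3.37, and 2.17, while the error bars of Anpep, Mme, and Dpp4 are wide. Those of the Adam genes are short, with points inside the dashed lines.

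The other peptide-trimming enzymes overlapped between all subsets and varied widely between libraries of a subset. Anpep lies on chromosome 7, at chr7:79821803-79861059 on the minus strand. It had 429.3, 485.2, 730.4, and 915.4 normalized counts in α4β7+ libraries. It had 341.4, 204.3, 550.5, and 611.7 in α4β7− CD22− libraries, and 167, 237.3, 916.7, and 707.9 in CD22+ libraries. The subsets overlapped, and in each of them replicates 3 and 4 were above replicates 1 and 2. Within CD22+ eosinophils the highest library held 5.49 times the Anpep of the lowest, against 1.39 times for Ace. The log2 difference of CD22+ from α4β7+ eosinophils was −0.61 ± 0.48 (SE), that of α4β7− CD22− from α4β7+ was −0.64 ± 0.48, and that of CD22+ from α4β7− CD22− was 0.03 ± 0.48. Without a library in turn these ran from −1.005 (without CD22+ replicate 3) to −0.19 (without CD22+ replicate 1), from −0.85 to −0.33, and from −0.36 to 0.45.

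Enterocyte RNA followed the same replicate numbers. Of 16 enterocyte markers, Cdh17 was set aside after its values were seen, since it rose with the subsets, from 1200 to 1598 in α4β7+ libraries up to 6586 to 7871 in CD22+ libraries. None of the other 15, among them Vil1, Fabp1, Apoa1, and Sis, was at 0 in any library. Of these 15, Mttp was lower in both other subsets and Sis in α4β7− CD22− than in α4β7+ eosinophils in limma. Their sum was 4157, 5472, 7470, and 8676 normalized counts in the α4β7+ libraries, 3082, 2514, 5979, and 5300 in the α4β7− CD22− libraries, and 1553, 2782, 9072, and 5685 in the CD22+ libraries. Replicates 3 and 4 were thus above replicates 1 and 2 in all 3 subsets, as for Anpep. Per 1000 normalized counts of these markers, a ratio added after the values were seen, Anpep came to 98.8 ± 7.5 (SD, n = 4), 99.9 ± 16, and 105 ± 16.2 along α4β7+, α4β7− CD22−, and CD22+ eosinophils. The 12 libraries lay between 81.3 and 125 on that ratio. Mme spread more widely on it, from 2.96 to 22.1, and Dpp4 from 16.0 to 54.1, with Dpp4 means of 27.2, 35.3, and 31.3. Ace came to 30.9 ± 8.95, 114 ± 40.5, and 669 ± 540 on the same ratio, and spread from 171 to 1380 within CD22+ eosinophils. The part of enterocyte RNA in the Anpep values was not tested.

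**Figure D3:**
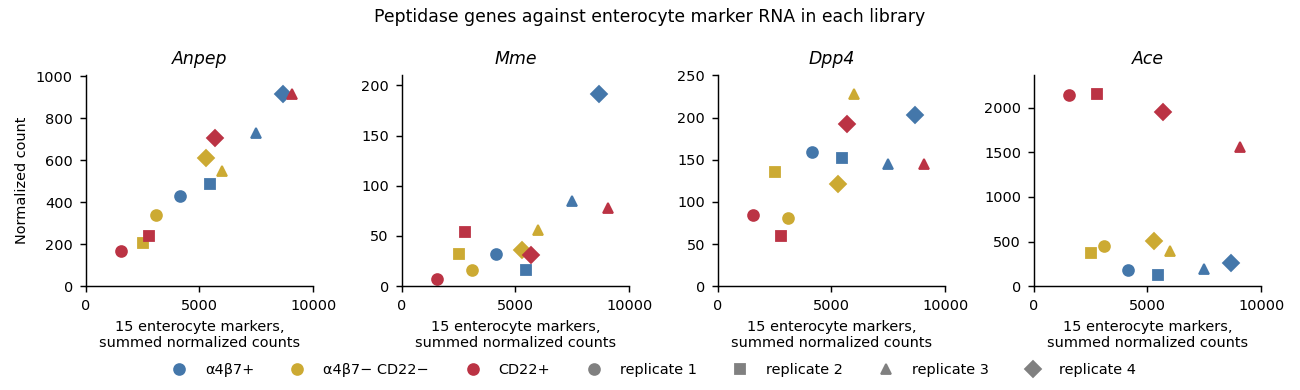
Normalized counts of Anpep, Mme, Dpp4, and Ace (vertical axes) against the summed normalized counts of 15 enterocyte markers (horizontal axes) in the 12 libraries, with a color per subset and a marker shape per replicate number. Anpep is higher in replicates 3 and 4 of every subset, where the marker sums are higher too, and runs from 167 at a sum of 1553 to 916.7 at 9072 in CD22+ eosinophils, whereas the 4 CD22+ libraries stay above all others for Ace at any marker sum.

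Mme was the least abundant of the 8 genes. It lies at chr3:63241537-63386030 on the plus strand. Its normalized counts were 31.6, 16.2, 84.6, and 191.7 in α4β7+ libraries. They were 15.8, 32.4, 56.4, and 35.9 in α4β7− CD22− libraries, and 7.6, 53.6, 77.5, and 31.4 in CD22+ libraries. The subsets overlapped, and in each the library highest in Mme was also the library highest in enterocyte markers. The differences from α4β7+ eosinophils were −0.74 ± 0.74 (SE, log2) for each of the other subsets, and CD22+ and α4β7− CD22− eosinophils differed by 0.00 ± 0.74. Single libraries moved these values, to −0.14 for α4β7− CD22− against α4β7+ without α4β7+ replicate 4, to −0.09 for CD22+ against α4β7+ without CD22+ replicate 1, and to −1.30 for each without α4β7+ replicate 2. Without a library in turn, the difference between CD22+ and α4β7− CD22− ran from −0.42 to 0.65.

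Dpp4, at chr2:62330073-62412231 on the minus strand, had 159.3, 151.7, 145.1, and 202.8 normalized counts in α4β7+ libraries. In α4β7− CD22− libraries it had 80.5, 135.4, 228.2, and 121.5, and in CD22+ libraries 84.1, 58.9, 145.5, and 191.8. The α4β7+ libraries were the most alike, with a coefficient of variation of 15.8% against 44.1% and 50% in the other subsets, and all 3 subsets overlapped. The difference of CD22+ from α4β7+ eosinophils was −0.58 ± 0.35 (SE, log2), that of α4β7− CD22− was −0.31 ± 0.35, and that between CD22+ and α4β7− CD22− was −0.28 ± 0.35. Without a library in turn these ran from −0.86 to −0.29, from −0.57 to −0.07, and from −0.55 to 0.01.

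Because replicate numbers 3 and 4 held more enterocyte RNA, the differences were also taken within replicates 1 and 2 and within replicates 3 and 4, a split added after the values were seen. Ace was higher in CD22+ than in α4β7+ eosinophils by 3.80 in replicates 1 and 2 and by 2.95 in replicates 3 and 4 (log2). Its step from α4β7− CD22− to CD22+ was 2.39 and 1.96. Anpep differed between CD22+ and α4β7+ eosinophils by −1.19 in replicates 1 and 2, and by −0.02 in replicates 3 and 4. Dpp4 differed by −1.13 and −0.04 in the same comparison, and Mme by −0.13 and −1.35. The values of Anpep, Mme, and Dpp4 thus depended on which libraries were compared.

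The ADAM proteases were abundant and stayed below a fold change of 1.5 between subsets, with Adam19 moving the most. Adam19, at chr11:46055992-46147343 on the plus strand, was the 44th of the 15249 genes by average. It had 22013, 19028, 22238, and 22745 normalized counts in α4β7+ libraries. It had 25960, 26402, 30346, and 25442 in α4β7− CD22− libraries, and 26964, 25180, 24102, and 23659 in CD22+ libraries. All 8 libraries of the latter subsets were above all 4 α4β7+ libraries, while these subsets overlapped each other. The means were 1.26 and 1.16 times the α4β7+ mean, below the fold change of 1.5, with log2 differences of 0.33 ± 0.076 and 0.22 ± 0.076 (SE), which quantile normalization of the libraries moved to 0.46 and 0.56. CD22+ differed from α4β7− CD22− eosinophils by −0.11 ± 0.076, which quantile normalization turned to 0.10. Of its exon words, 9.42% occur in other genes, the most in the antisense gene Gm16033. Without the strand setting, a part of its counts cannot be assigned with certainty.

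Adam8, a protease of myeloid cells, is at chr7:139978932-139992562 on the minus strand and was the 119th gene by average. Its normalized counts were 13564, 12663, 14662, and 13016 in α4β7+ libraries. They were 13317, 14248, 15501, and 13426 in α4β7− CD22− libraries, and 13391, 12483, 11823, and 13204 in CD22+ libraries. The 3 subsets overlapped and the coefficient of variation within a subset was at most 7.14%. The difference between CD22+ and α4β7+ eosinophils was −0.08 ± 0.070 (SE, log2), and quantile normalization turned it to 0.20. CD22+ differed from α4β7− CD22− eosinophils by −0.15 ± 0.070, and by −0.01 under quantile normalization.

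Adam10, which cleaves Notch receptors and many adhesion molecules, is at chr9:70678997-70780229 on the plus strand. The α4β7+ libraries held 1499, 1315, 1357, and 1492 normalized counts, the α4β7− CD22− libraries 1347, 1362, 1403, and 1451, and the CD22+ libraries 1444, 1532, 1549, and 1707. The CD22+ libraries were at the upper end, but replicate 1 lay within the range of each of the other subsets. CD22+ differed from α4β7+ eosinophils by 0.14 ± 0.076 (SE, log2) and from α4β7− CD22− eosinophils by 0.16 ± 0.076.

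Adam17, the enzyme that releases TNF, is at chr12:21323509-21373632 on the minus strand. The α4β7+ libraries held 1404, 1117, 1116, and 1226 normalized counts, the α4β7− CD22− libraries 1141, 1199, 1193, and 1205, and the CD22+ libraries 1058, 1230, 1082, and 1294. The subsets overlapped, and the log2 differences were −0.03, −0.06, and −0.03, each with an SE of 0.093. Of its exon words, 7.25% occur in other genes, the most in Iah1, a coding gene on the opposite strand.

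Levels can be compared between genes only per length, and for this the normalized counts were divided by the merged exon length of each gene in kilobases. In α4β7+ eosinophils Adam19 and Adam8 stood highest, at 3023 ± 236 and 2906 ± 188 normalized counts per kilobase (SD, n = 4), and their libraries overlapped. Adam10 followed at 288 ± 19, then Adam17 at 170 ± 19 and Anpep at 155 ± 54.5, which overlapped. Ace, at 36.2 ± 10, overlapped Dpp4 at 26.1 ± 4.12, and Mme was lowest at 7.02 ± 6.88. Ace was thus sixth of the 8 genes in α4β7+ eosinophils.

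In α4β7− CD22− eosinophils Ace was again sixth, at 81.7 ± 11.7, overlapping Anpep at 103 ± 45.5 and above Dpp4 in every library. In CD22+ eosinophils Ace stood at 370 ± 53.3 and took the third place, where its libraries, from 294 to 408, overlapped those of Adam10, from 294 to 347. Adam19 was above Adam8 in every library of α4β7− CD22− and CD22+ eosinophils by this length, but with the longest coding transcript as the length Adam8 ranked above Adam19. Even at its highest, Ace remained far below Adam19, at 3510 ± 207, and Adam8, at 2744 ± 155.

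**Figure D4:**
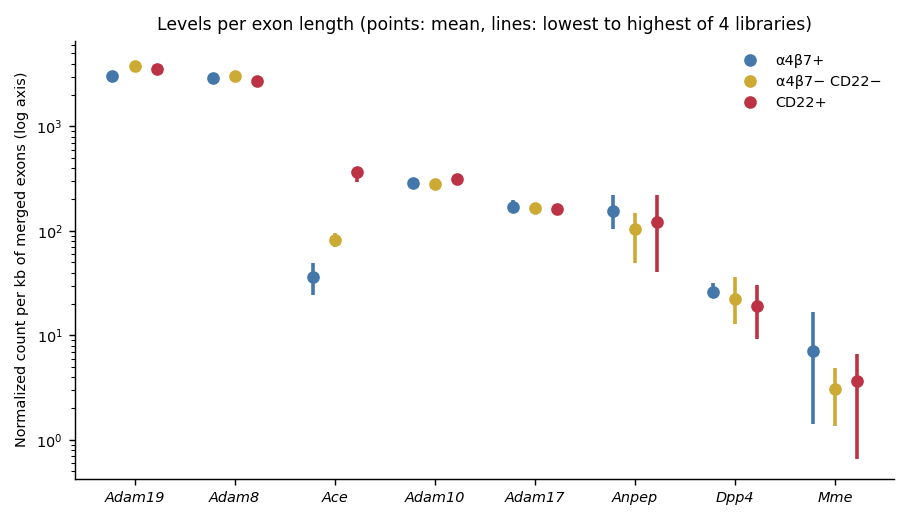
Normalized counts per kilobase of merged exons (vertical axis, log scale) of the 8 genes (horizontal axis, ordered by the CD22+ mean), with points for the mean and lines from the lowest to the highest of 4 libraries. Ace moves from 36.2 in α4β7+ to 370 in CD22+ eosinophils and reaches the level of Adam10, while the other 7 genes keep their order by mean among themselves.

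No gene around Ace in the renin-angiotensin and kinin pathway passed the thresholds as higher. Of 29 genes in this list, 14 had an average above 10 normalized counts and were tested in limma, and 0 were higher in any comparison at the thresholds. At an unadjusted p under 0.05, 2 were higher and 2 lower in α4β7− CD22− than in α4β7+ eosinophils, and 3 were higher and 2 lower in CD22+ than in α4β7+ eosinophils, beside 27.1% and 32% of all genes in either direction. The genes for angiotensinogen (Agt), renin (Ren1), and the bradykinin receptors (Bdkrb1 and Bdkrb2) were among the 15 below that minimum. Prep, a prolyl endopeptidase that cuts angiotensin peptides, fell from 2111 ± 241 normalized counts in α4β7+ to 1228 ± 130 in CD22+ eosinophils (SD, n = 4), with a log2 difference of −0.78 ± 0.099 (SE, adjusted p = 3.91e-05, limma). Thop1, thimet oligopeptidase, fell in α4β7− CD22− eosinophils, with a log2 difference of −1.56 (adjusted p = 0.00288, limma) and is named after its values were seen. The share of tested genes of the list that passed was 7.14% in each comparison with α4β7+ eosinophils, beside 8.05% and 12% of all genes. The median log2 difference of the list between CD22+ and α4β7+ eosinophils was −0.25.

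Some of the other surface peptidases rose between α4β7+ and CD22+ eosinophils, though 0 of the rows passed in the step from α4β7− CD22− to CD22+. Of 26 rows tested for this list, of which 2 stand for Dpep2 and share sequence, 4 were higher and 1 was lower in α4β7− CD22− than in α4β7+ eosinophils, and 7 were higher and 2 were lower in CD22+ than in α4β7+ eosinophils. That is 19.2% and 34.6% of the rows, beside 8.05% and 12% of all genes, and the median log2 difference of the list was −0.05 and 0.06. Without the variance trend 5 and 7 rows passed. At an unadjusted p under 0.05 in limma, 10 of the 26 rows were counted in each comparison, 7 higher and 3 lower, beside 27.1% and 32% of all genes. Dpep2, a membrane-bound dipeptidase that turns leukotriene D4 into leukotriene E4, had 729.1, 652.1, 519.7, and 493.2 normalized counts in α4β7+ libraries. It had 2598 to 2843 in α4β7− CD22− libraries and 3609 to 3941 in CD22+ libraries, with no overlap between any subsets. The log2 differences from α4β7+ eosinophils were 2.21 ± 0.11 (SE, adjusted p = 1.95e-08, limma) and 2.66 ± 0.11 (adjusted p = 4.58e-10, limma). Between CD22+ and α4β7− CD22− eosinophils Dpep2 differed by 0.46 ± 0.11 with an adjusted p of 0.0602 in limma.

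Dpep2 has 2 identifiers whose exons overlap. The lower row, which shares 92.5% of its exon words with other identifiers, the most with the main row, rose as well, from 20.8 ± 9.88 to 106 ± 17.3 normalized counts. Its neighbour Dpep3 rose from 15.3 ± 7.07 normalized counts in α4β7+ to 119 ± 16.9 and 157 ± 9.63 in α4β7− CD22− and CD22+ eosinophils (SD, n = 4), with adjusted p of 6.75e-06 and 8.48e-07 in limma. Ggt5, the gamma-glutamyl transferase that turns leukotriene C4 into leukotriene D4, rose from 404 ± 33.1 to 946 ± 146 and 990 ± 65.5 (adjusted p = 3.56e-06 and 8.48e-07, limma). Hpn, the membrane serine protease hepsin, fell from 204 ± 17.3 to 55.4 ± 8.75 and 55.1 ± 13.1 normalized counts (adjusted p = 1.53e-05 and 6.22e-06, limma). The other rows past the thresholds, all in CD22+ against α4β7+ eosinophils and named after their values were seen, were less secure. St14 was higher by 0.62 on the log2 scale and fell short of the fold change without α4β7+ replicate 1 (0.58) or CD22+ replicate 3 (0.58). Bace1 (0.60, adjusted p = 0.0498, limma), Fap (1.08, adjusted p = 0.0358), and Mmp16 (−0.71, adjusted p = 0.0442) lost their calls in 15, 11, and 12 of 23 alternatives, for Fap including 1 with a minimum that it did not reach. Of the exon words of Bace1, 30.3% occur in other genes, the most in Rnf214 on the opposite strand. Without a library in turn the log2 differences ranged from 0.43 to 0.74 for Bace1, 0.92 to 1.34 for Fap, and −0.82 to −0.62 for Mmp16.

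Of 18 peptidases inside the cell, all tested, 0 passed the thresholds in any of the 3 comparisons in limma, with or without the variance trend, beside 8.05%, 12%, and 0.603% of all genes. At an unadjusted p under 0.05 the counts were 3 and 5 of 18 in the comparisons of α4β7− CD22− and CD22+ with α4β7+ eosinophils, beside 27.1% and 32% of all genes, and 0 in the third, beside 9.67%. Prep and Thop1, which also act inside the cell, were counted in the renin-angiotensin list and not here. Npepps, a cytosolic aminopeptidase, went from 3205 ± 400 normalized counts in α4β7+ to 2308 ± 209 and 2147 ± 216 in α4β7− CD22− and CD22+ eosinophils (SD, n = 4). Its adjusted p was 0.0058 and 8.01e-04 in limma, but its log2 differences of −0.47 and −0.58 were short of the fold change of 1.5. Dpp8, an intracellular relative of Dpp4, had 2567 ± 177, 2620 ± 130, and 2376 ± 164 normalized counts in the 3 subsets.

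Among other ADAM family members and their regulators, 25 of 28 genes were tested. Adam28, a lymphocyte ADAM, rose in CD22+ eosinophils, with 501.3, 399.2, 382.5, and 431.4 normalized counts against 244.3, 126.8, 149.5, and 77.03 in α4β7+ libraries (adjusted p = 2.62e-04, limma). Its α4β7− CD22− libraries, from 191.9 to 238.2, lay within the range of the α4β7+ libraries. The call held without each library in turn. Between CD22+ and α4β7− CD22− eosinophils Adam28 had an adjusted p of 0.105 in limma, and it passed the thresholds there only when α4β7+ libraries were left out of the fit, all of them or replicate 1 or 4 alone. Tspan5, a tetraspanin that binds Adam10 and steers it to the surface, fell from 541 ± 55.7 to 356 ± 14.3 and 339 ± 49.8 normalized counts in α4β7− CD22− and CD22+ eosinophils (adjusted p = 0.00336 and 7.68e-04, limma). The fall in α4β7− CD22− eosinophils had a log2 difference of −0.60, near the fold change of 1.5, and dropped below that fold without α4β7+ replicate 1 (−0.56), α4β7+ replicate 3 (−0.56), or α4β7− CD22− replicate 2 (−0.58). Tspan17, a tetraspanin of the same group that is named after its values were seen, was lower in the same comparisons, with log2 differences of −1.29 and −1.27, and lost both calls in replicates 1 and 2 alone and in replicates 3 and 4 alone. The 2 genes called in α4β7− CD22− and the 3 called in CD22+ against α4β7+ eosinophils made up 8% and 12% of the list, close to the 8.05% and 12% of all genes.

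Genes for proteins that ADAM proteases release from the membrane moved in both directions. Of 33 genes tested, 4 were lower and 2 were higher in each comparison with α4β7+ eosinophils, which is 18.2% of the list beside 8.05% and 12% of all genes. At an unadjusted p under 0.05 in limma, 13 of the 33 were counted for α4β7− CD22− (3 higher, 10 lower). For CD22+ eosinophils 11 were counted (2 higher, 9 lower), beside 27.1% and 32% of all genes. The median log2 difference of the list was −0.26 for α4β7− CD22− and −0.13 for CD22+ eosinophils. Tnf, the cytokine released by Adam17, fell from 179 ± 18.4 normalized counts to 29.7 ± 9.23 and 20.9 ± 7 (adjusted p = 3.34e-05 and 2.91e-06, limma).

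Icam1 and Hbegf of this list fell as well. Icam1, an adhesion molecule for leukocyte integrins, fell from 4633 ± 320 normalized counts in α4β7+ to 2960 ± 206 and 2504 ± 162 in α4β7− CD22− and CD22+ eosinophils (SD, n = 4, adjusted p = 4.06e-05 and 8.42e-07, limma). Of its exon words, 14.8% occur in other genes, the most in the antisense gene Gm47079. Hbegf, a membrane-anchored growth factor, fell from 1070 ± 231 to 461 ± 93 in CD22+ eosinophils (adjusted p = 4.87e-05, limma). Its fall to 699 ± 41.4 in α4β7− CD22− eosinophils had a log2 difference of −0.59, at the edge of the fold change of 1.5, and was lost without α4β7+ replicate 3 (log2 difference −0.46), α4β7+ replicate 4 (−0.56), or α4β7− CD22− replicate 2 (−0.55), with adjusted p of 0.0604, 0.0509, and 0.0571 in limma. Tnfrsf1a, the main TNF receptor, rose from 1287 ± 102 to 2122 ± 163 and 2489 ± 405 normalized counts (adjusted p = 4.20e-04 and 1.98e-05, limma). Il1r2, the decoy receptor for interleukin-1, was the other gene that rose and is named after its values were seen, with log2 differences of 1.01 and 0.67, of which the latter fell short of the fold change without α4β7+ replicate 2 (0.53).

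**Figure D5:**
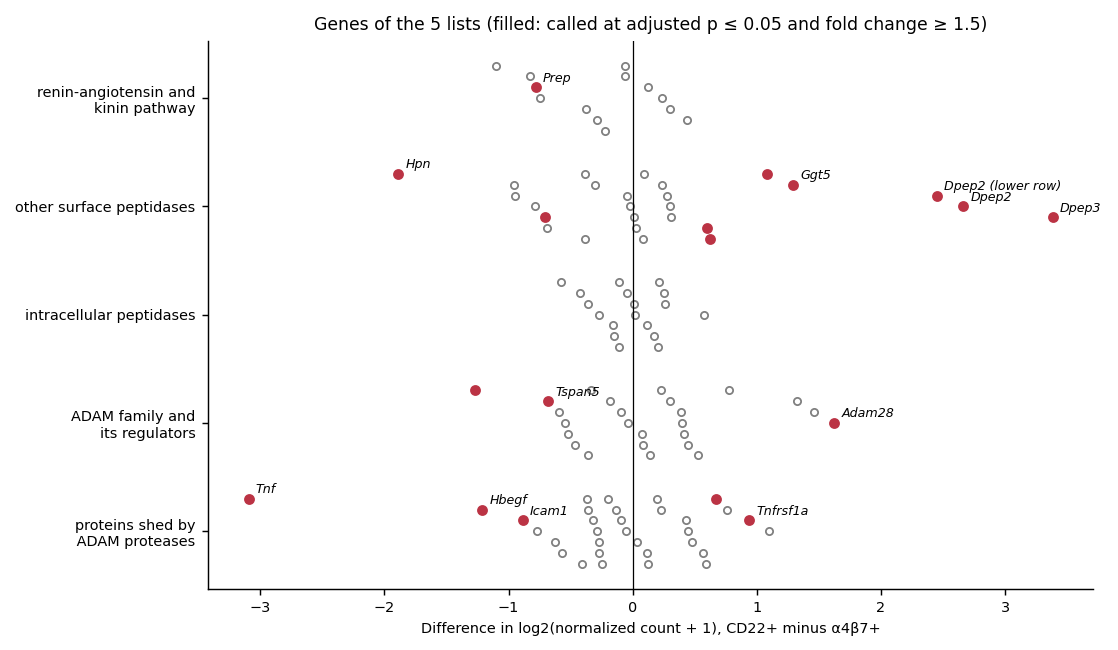
Log2 difference of CD22+ from α4β7+ eosinophils (horizontal axis, on log2(normalized count + 1)) for the genes tested in the 5 lists (rows of points, spread vertically for legibility). Filled points passed an adjusted p of 0.05 and a fold change of 1.5, open points did not, and the filled points shown run from Tnf at −3.09 to Dpep3 at 3.39. Some genes of the lists are not drawn.

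In the last step, from α4β7− CD22− to CD22+ eosinophils, the lists were at the background. Of the 116 rows tested in the 5 lists, 14 passed the thresholds in α4β7− CD22− against α4β7+ eosinophils and 19 in CD22+ against α4β7+, whereas 0 passed between CD22+ and α4β7− CD22− in limma, with or without the variance trend. Over all genes 0.603% passed in that step, so the count of 0 says nothing particular to the lists. At an unadjusted p under 0.05, 12 of the 116 rows were counted in that step, 6 higher and 6 lower, beside 9.67% of all genes. The list counts with α4β7+ eosinophils share those 4 libraries and are not independent of each other.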

How the data were processed

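RNA-seq of 3 eosinophil subsets was analyzed in 12 libraries, grouped by their labels. Per the study's methods, the authors put 3 ng of RNA into each stranded library, trimmed the paired-end reads, pseudoaligned them to mm10 with kallisto, and normalized the estimated counts with DESeq2. The submitters' notes name Trimmomatic 0.39, kallisto 0.46.1, and DESeq2 1.38.2. The resulting normalized counts are the signal analyzed here, in the form the authors deposited. They are not whole numbers and do not step cleanly by 1 read, so no count model was run and read depth is unknown. Normalized counts summed to 14286474 to 16915755 per library, with 19760 to 21960 genes above 0.

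Values were tested as log2(normalized count + 1) with limma 3.58.1 in R 4.3.3, with a variance trend, the 3 subsets in 1 model, and Benjamini-Hochberg adjustment over 15249 genes with an average above 10. A fold change on this scale understates the change of low genes. Labels call the libraries biological replicates. Whether replicate numbers pair libraries was checked by the correlation of same-numbered deviations from subset means. For CD22+ and α4β7− CD22− libraries all 4 correlations were above 0.1 (0.135 to 0.203), which meets the rule used here for pairing. The values given come from the fit without a replicate block, and the blocked values are in the closing section.

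The members and the 5 gene lists were chosen with earlier results of these data known. Named genes were the members, the called genes of each list (at most 5, those with the largest difference between CD22+ and α4β7+ eosinophils at an average of at least 50, or the 2 most abundant of a list with none), marker genes beside a result, and the 5 genes nearest to Ace. All 8 members matched GENCODE release 21 for mouse (GRCm38), which gave positions, exon lengths, and shared 31-base words. On simulated data for CD22+ against α4β7+ eosinophils, 100 of 15249 genes were changed by 1 and 100 by 2 on the log2 scale. Of these, 60% and 83% were called. The simulated noise was independent between genes, and far more genes passed in the data (1829), so these rates need not hold there. Alternatives varied the pseudocount, filter, scaling, variance trend, libraries, replicate block, and threshold. Some genes counted in the lists are not reported here by name.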

Additional observations from a re-analysis of the deposited data

How the results depend on the processing

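Ace was chosen for its difference, so nothing is read from its place past the thresholds. Leaving out each library in turn gave Ace log2 differences of 1.03 to 1.36 for α4β7− CD22− against α4β7+, 3.20 to 3.53 for CD22+ against α4β7+, and 2.11 to 2.28 for CD22+ against α4β7− CD22− eosinophils. The CD22+ against α4β7+ difference moved to 3.80 with replicates 1 and 2 alone and to 2.95 with replicates 3 and 4 alone. With the adjusted p alone as the threshold, genes passing numbered 2265, 3223, and 164 in the 3 comparisons, listed rows 23 and 32 in those with α4β7+, and members 2 (Ace and Adam19) in the comparison of α4β7− CD22− with α4β7+. With replicates 1 and 2 alone, 741 genes and 9 listed rows passed in that comparison, 2 members (Ace, and Anpep as lower) in CD22+ against α4β7+, and 22 genes between CD22+ and α4β7− CD22−. With replicates 3 and 4 alone, 675, 1171, and 7 genes passed. Without the variance trend, 54 genes passed between CD22+ and α4β7− CD22−, of which 13 were higher, against 92 and 32. Leaving out each library in turn gave 16 (without CD22+ replicate 4) to 35 (without α4β7+ replicate 3) genes higher in that step. Listed rows in that step numbered 0 to 1 without each library and 1 in a fit of those subsets alone, each time Adam28. The cause of these changes was not tested. The calls of Tspan5 and Hbegf in α4β7− CD22− against α4β7+ were lost under 75th percentile rescaling, with log2 differences of −0.58 and −0.57, and that of Hbegf also under quantile normalization (−0.57). With replicates 1 and 2 alone, the calls of Icam1 (−0.56), Tspan5 (−0.61), Hbegf (−0.42), and the lower Dpep2 row (1.15) in that comparison and of Tspan5 in CD22+ against α4β7+ (−0.49) were lost, and with replicates 3 and 4 alone those of Tspan5 (−0.58) and Hbegf (−0.77) in α4β7− CD22− against α4β7+, where the fold of Hbegf was larger and its adjusted p was 0.0998 in limma. Of the genes named after their values were seen, Thop1 lost its call with replicates 1 and 2 alone (−1.32), Tspan17 both calls under either split (−1.15 to −1.38), and Il1r2 both calls with replicates 3 and 4 alone (0.89 and 0.36).

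Fitted with replicate number as a block term, Ace differed by 1.20, 3.37, and 2.17 with an SE of 0.16. Anpep then differed from α4β7+ by −0.64 in α4β7− CD22− and by −0.61 in CD22+ eosinophils. Between CD22+ and α4β7− CD22− it differed by 0.03, and each of these Anpep values had an SE of 0.25. Genes passing numbered 1254, 1843, and 100, and listed rows 16, 17, and 0. The block changed no count of calls by more than 1.5 times and, among genes named in the text, lost the calls of Bace1 and Fap in CD22+ against α4β7+ (adjusted p = 0.0703 and 0.0571, limma). In the comparisons with α4β7+ the numbers did not meet the rule for pairing. Same-number correlations were 0.043 to 0.137 for α4β7− CD22− and −0.0586 to 0.182 for CD22+, with 2 of 4 libraries closest to their own number in each. Such correlations over all genes cannot show that pairing is absent. Anpep and the summed enterocyte markers were higher in replicates 3 and 4 than in replicates 1 and 2 of all 3 subsets. Read depth is unknown, so counting error could not be given for low genes such as Mme.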
